A study of Mus musculus with 13 samples.

Results

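The genes described here are 7 noncoding RNA genes of the mouse, chosen by name: the nuclear RNAs Malat1, Neat1 and Miat, and the small nucleolar RNA (snoRNA) host genes Snhg11, Snhg1, Snhg12 and Gas5. The choice was made with earlier results of these data known. They are 7 of the 37273 genes that the GENCODE vM1 annotation places on chromosomes 1 to 19, X and Y of the mm9 build. The measurements are peaks of DRIP-seq, in which hybrids of RNA and DNA are pulled down with the S9.6 antibody and sequenced, in N2a (Neuro2A) cells, a mouse neuroblastoma line. The cells were transfected with a scramble control siRNA (siScramble) or with siRNA against DDX1, a putative RNA helicase, or EXOSC3, a subunit of the RNA exosome. There were 3 untreated libraries for each group and 1 library for each group whose DNA had been digested with RNase H, an enzyme that degrades the RNA of a hybrid. The lists of peaks hold no expression levels, so the identity of the cells and the depletion of DDX1 and EXOSC3 could not be checked from them.

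In 12 of 12 lists the peaks are named for a different treatment than the one in the sample title, always in 1 rotation. Groups are by title here, so "labelled siScramble" means titled siScramble and named siDDX1, "labelled siDDX1" means named siEXOSC3, and "labelled siEXOSC3" means named siScramble. Such a rotation leaves the tests over the 3 groups and the RNase H tests as they are, but the direction of any difference between groups depends on it. The untreated libraries held 23882 to 42571 peaks and the RNase H libraries 3811 to 8034. The local background recovered from each list, a relative measure of depth, was 0.544 to 1.29 fragments in the untreated libraries and 1.13 to 1.60 in the RNase H libraries. The library labelled siDDX1 replicate 1 was the deepest untreated one, and the other 8 lay between 0.544 and 0.706. Precision was limited by these depths, since the weakest peaks rested on 5 to 7 fragments at the summit in the untreated libraries and on 8 or 9 in the RNase H libraries.

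An R-loop forms where RNA pairs with its DNA template and leaves the other DNA strand single, and strongly transcribed genes are a common place for it. Malat1 RNA is retained in nuclear speckles, Neat1 RNA builds paraspeckles, and Miat is a further nuclear RNA that is abundant in neurons. The SNHG genes and Gas5 carry snoRNAs in their introns; these guide the chemical modification of ribosomal and other RNAs, while the spliced host RNA is mostly noncoding and, for several hosts, short-lived. Snhg11 is typed protein_coding in this annotation, Malat1 and Neat1 processed_transcript, and the others lincRNA.

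Of the 7 genes, 5 had a peak in 9 of 9 untreated libraries, and Miat and Snhg11 had none in any. Over all genes, 18.1% had a peak in 9 of 9, among lincRNA and processed_transcript genes 12.9%, and among genes tagged in the annotation as hosts of noncoding RNAs 42.1%. No untreated library had a peak at 63.5% of all genes. Because the 7 genes were chosen with earlier results of these data known, these comparisons are a description. A peak was counted when it overlapped the gene or the 1 kb on either side, and the covered share is the percent of the annotated gene, without those flanks, that lies under peaks. None of the 7 genes had a peak in any of the 3 RNase H libraries.

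The sequences that the results below turn on are given first, all from the mm9 genome and 5′ to 3′ along the gene. The starts of Malat1, Gas5 and Miat are shown because the base composition of the first 500 bases of these genes is compared further on. At Gas5 those 500 bases lie upstream of the printed window. Capitals mark the first 40 transcribed bases of the named transcript. The printed windows lie at chr19:5802632-5802731 on the minus strand, chr1:162965234-162965333 on the plus strand and chr5:112657929-112658028 on the minus strand. They hold 60%, 53% and 67% G and C.
start of Malat1-001: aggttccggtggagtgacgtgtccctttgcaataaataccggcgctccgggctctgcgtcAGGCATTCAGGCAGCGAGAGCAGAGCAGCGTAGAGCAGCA
start of Gas5-001: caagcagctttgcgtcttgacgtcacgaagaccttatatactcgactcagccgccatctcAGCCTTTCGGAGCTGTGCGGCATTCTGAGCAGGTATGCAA
start of Miat-201: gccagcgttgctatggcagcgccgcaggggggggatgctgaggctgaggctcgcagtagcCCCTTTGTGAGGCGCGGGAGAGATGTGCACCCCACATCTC

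Peak summits of several libraries fell on nearly the same bases at several places, and 4 of these are shown next. In the Snora61 gene inside Snhg12 (chr4:131866155-131866284, plus strand) and in the stretch upstream of Neat1 (chr19:5846074-5846189, minus strand), capitals run from the first to the last summit. In the windows of Gas5 (chr1:162967259-162967379, plus strand) and Malat1 (chr19:5800750-5800870, minus strand), the capital letter is the summit base itself.
Snora61: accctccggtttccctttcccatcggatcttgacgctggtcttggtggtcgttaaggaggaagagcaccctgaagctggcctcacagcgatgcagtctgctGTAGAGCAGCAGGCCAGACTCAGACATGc
Neat1 upstream: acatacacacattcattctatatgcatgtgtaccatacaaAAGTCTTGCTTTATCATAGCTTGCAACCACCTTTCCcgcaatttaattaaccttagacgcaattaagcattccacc
Gas5 shared summit: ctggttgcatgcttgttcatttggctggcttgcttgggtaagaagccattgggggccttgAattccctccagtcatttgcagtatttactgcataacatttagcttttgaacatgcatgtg
Malat1 shared summit: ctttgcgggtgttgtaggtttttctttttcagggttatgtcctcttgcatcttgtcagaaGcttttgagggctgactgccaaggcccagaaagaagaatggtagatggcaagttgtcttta

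The DNA had been cut with 5 restriction enzymes before the pull-down, and many peaks ended exactly where an enzyme cuts. The edges below recurred in the most libraries at their genes, with the recognition site in capitals. They lie at chr19:5795224-5795253 (Malat1, minus strand), chr1:162963717-162963746 (Gas5, plus strand), chr19:8799297-8799326 (Snhg1, plus strand), and chr4:131865243-131865272 and chr4:131866410-131866439 (Snhg12, plus strand).
Malat1 downstream edge XbaI: cttctctgaggtTCTAGAgatgaagcaagt
Gas5 upstream edge HindIII: gcccatatttttAAGCTTaccagtttgagc
Snhg1 upstream edge XbaI: actatttgtattTCTAGAggacacattatg
Snhg12 upstream edge HindIII: tcccaatgtctaAAGCTTcacgtattgaac
Snhg12 downstream edge HindIII: cacttgttgggtAAGCTTaaggattgttaa

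Malat1 (ENSMUSG00000092341.1, chr19:5795690-5802671, minus strand, 6982 bases) was covered over most of its length in every untreated library. The covered share was 89.1%, 100% and 92.8% in the libraries labelled siScramble, 97.6%, 87.6% and 79.0% in those labelled siDDX1, and 78.1%, 81.9% and 87.6% in those labelled siEXOSC3. The 3 groups overlapped, with the highest library labelled siScramble and the lowest labelled siEXOSC3. The highest fold of a Malat1 peak over the local background, the peak caller's linear ratio, was 15.8, 17.6 and 19.2 with siScramble, 21.8, 15.4 and 22.0 with siDDX1, and 9.32, 11.0 and 22.5 with siEXOSC3. Here the lowest and the highest library both carried the siEXOSC3 label.

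The 3′ part of Malat1 was the steadiest. The last restriction fragment of the gene, chr19:5795237-5799102 (3866 bases, HindIII to XbaI), was covered to 100% in 9 of 9 untreated libraries. Its far edge, the XbaI site printed above, was the exact peak edge in 8 of them. Toward the 5′ end coverage was broken: the fragment at the very start, chr19:5802507-5802813, was covered in 3 libraries, and the fragments from chr19:5800057 to chr19:5800570 in 7. In all, 65.5% of Malat1 lay under a peak in 9 of 9 libraries, and the other 34.5% in some of them. Gm20417, a processed_transcript gene on the opposite strand, overlaps 988 bases of Malat1 inside that 3′ part. DRIP-seq peaks carry no strand, so hybrids with RNA of either gene cannot be told apart.

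Neat1 (ENSMUSG00000092274.1, chr19:5824708-5845478, minus strand, 20771 bases) showed the opposite arrangement, with constant coverage at its 5′ end and scattered peaks in the body. The covered share was 30.0%, 37.6% and 35.0% with siScramble, 43.0%, 15.2% and 22.0% with siDDX1, and 26.7%, 31.4% and 36.1% with siEXOSC3. The lowest and the highest of the 9 libraries shared the siDDX1 label, and the highest was the deepest library. The highest fold was 34.6, 40.9 and 40.4 with siScramble, 36.6, 18.4 and 30.4 with siDDX1, and 34.2, 27.5 and 40.5 with siEXOSC3, again with overlap of all groups.

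A stretch of 2821 bases at the 5′ end of Neat1, chr19:5843455-5846275, lay under a peak in 9 of 9 untreated libraries and began 797 bases upstream of the annotated start. It consists of the first 2 restriction fragments. In 5 libraries the summit of the highest Neat1 peak fell within the 36 capital bases of the upstream sequence printed above, outside the annotated transcript, at 636 to 671 bases before its start. In the other 4 libraries it lay 150 bases before the start (siEXOSC3 replicate 2) or 1165 to 1167 bases after it.

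Neat1 has a short isoform (Neat1-002, chr19:5842307-5845476) and a long one (Neat1-001), and the long RNA is the one that paraspeckles need. The part of the gene under the short isoform was covered to 89.0%, 98.3% and 98.3% with siScramble, 89.6%, 63.8% and 79.9% with siDDX1, and 63.8%, 92.4% and 65.7% with siEXOSC3. The part found only in the long isoform, 17599 bases, was covered to 19.4%, 26.7% and 23.6%, then 34.6%, 6.44% and 11.6%, then 20.0%, 20.5% and 30.7% in the same order. The short part was the more covered one in 9 of 9 libraries. Of the 37 restriction fragments of Neat1, numbered from the 5′ end, fragments 13 to 21 (chr19:5834613-5839701) had no peak in any library. Farther 3′, fragment 24 (chr19:5832683-5833734) was covered in 9 of 9 libraries, by 79.1% on average, and fragment 33 (chr19:5826011-5827943) in 8 of 9, by 65.3%.

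**Figure D1:**
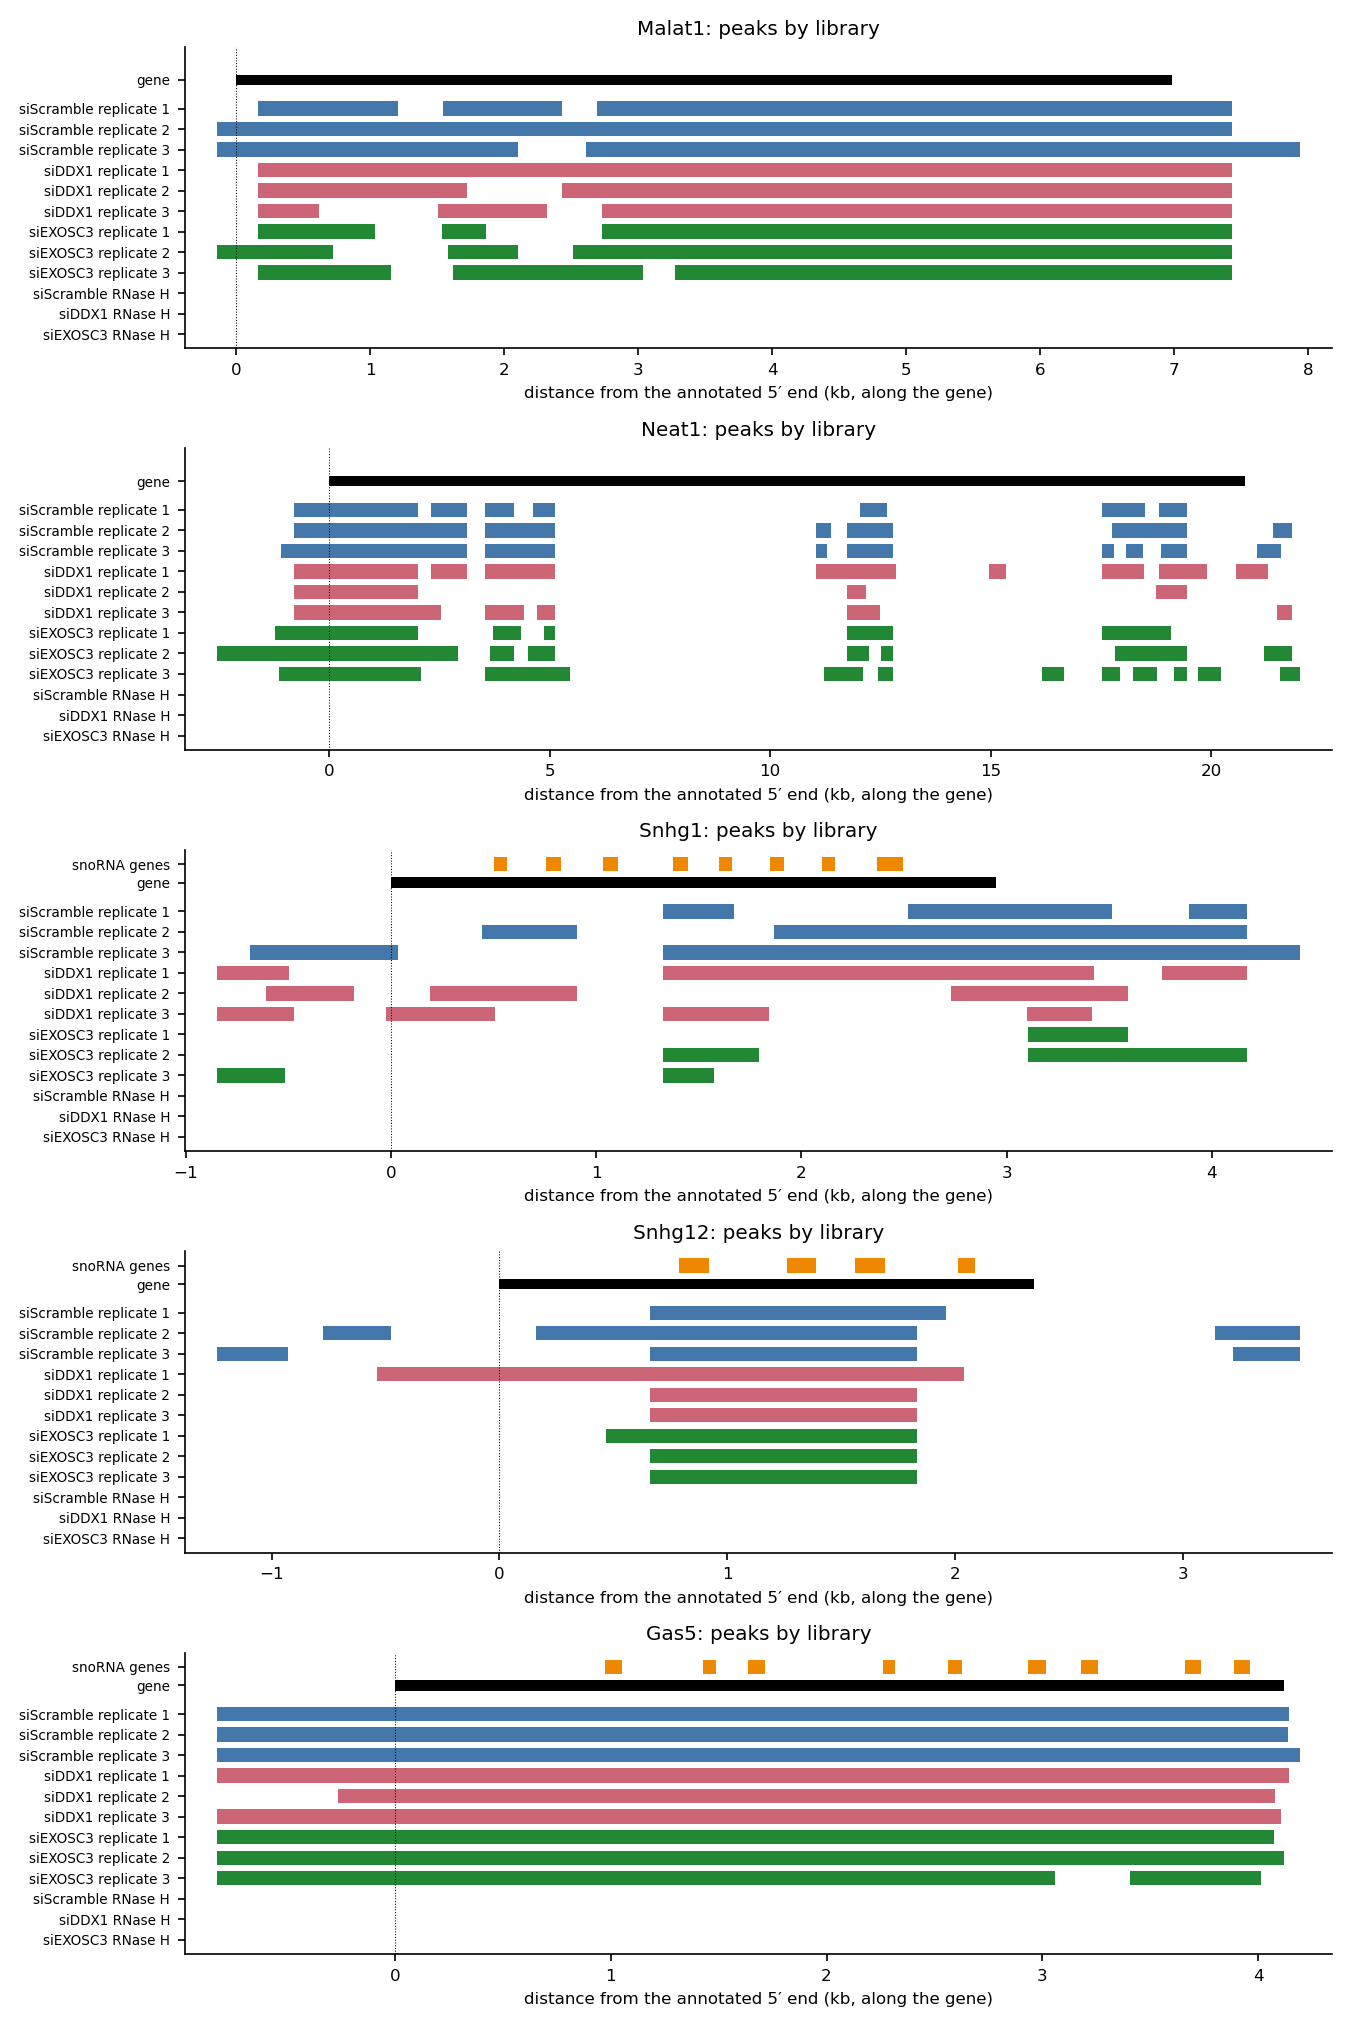
Peaks of each library along the 5 genes with peaks; the x axis is the distance in kb from the annotated 5′ end, in the direction of transcription, black bars are the genes, orange bars the snoRNA genes, and coloured bars peaks by labelled group. The 3′ part of Malat1, the 5′ end of Neat1, the middle of Snhg12 and nearly all of Gas5 were under peaks in 9 of 9 untreated libraries, and the 3 RNase H rows are empty at every gene.

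Gas5 (ENSMUSG00000053332.7, chr1:162964553-162968670, plus strand, 4118 bases) was the most completely covered of the 7 genes. The covered share was 100%, 100% and 100% with siScramble, 100%, 99.0% and 99.7% with siDDX1, and 98.9%, 100% and 89.0% with siEXOSC3. A gap in the library labelled siEXOSC3 replicate 3, which split the peak, gave the lowest value. Gas5 also had the highest folds: 49.8, 51.8 and 41.2 with siScramble, 50.1, 32.1 and 40.1 with siDDX1, and 44.4, 49.0 and 57.1 with siEXOSC3. The summits held 60 to 145 fragments.

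The peak over Gas5 began at the HindIII site printed above in 8 of 9 libraries, upstream of the gene. That stretch belongs also to Zbtb37, a zinc finger gene on the opposite strand whose 5′ end overlaps Gas5 by 428 bases, so the signal there cannot be given to either gene alone. The highest summit lay at the same base, 2766 bases into Gas5, in 4 libraries, 2 labelled siDDX1 and 2 labelled siEXOSC3. That base lies in an EcoRI site, GAATTC, where 2 fragments of the gene meet. The other summits lay 101 to 151 bases before the annotated start in 3 libraries, and 908 and 2637 bases after it in the remaining 2.

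Snhg12 (ENSMUSG00000086290.1, chr4:131864593-131866939, plus strand, 2347 bases) was covered over exactly 1 HindIII fragment in most libraries. The covered share was 55.3%, 71.2% and 49.9% with siScramble, 86.9%, 49.9% and 49.9% with siDDX1, and 58.2%, 49.9% and 49.9% with siEXOSC3. The value 49.9% recurs in 5 libraries because their peak spans the 1171 bases between the 2 HindIII sites printed above, and this fragment was covered to 100% in 9 of 9 libraries. The highest fold was 21.1, 34.7 and 31.8 with siScramble, 22.7, 19.7 and 20.7 with siDDX1, and 21.1, 17.1 and 27.0 with siEXOSC3. The groups overlapped in both measures.

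Within that fragment the summit sat at different ends. In the 6 libraries labelled siScramble and siDDX1 it lay 1663 to 1690 bases from the start of Snhg12, near the 3′ end of Snora61, in the capitals of the sequence above. In the 3 libraries labelled siEXOSC3 it lay at 665, 790 and 665 bases, at the 5′ end of the fragment, and 2 of these summits were on the bases of the HindIII site itself. The positions of the labelled siEXOSC3 libraries thus did not overlap those of the other 6. The highest peak had its summit wholly to 1 side in the labelled siEXOSC3 libraries at 2.54% of the 6733 genes with a peak in 9 of 9. This split at Snhg12 was picked out after its values were seen and was not tested.

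Snhg1 (ENSMUSG00000090867.1, chr19:8797986-8800932, plus strand, 2947 bases) was the weakest of the 5 genes with peaks and the least constant. The covered share was 26.3%, 52.3% and 56.2% with siScramble, 55.1%, 31.7% and 34.8% with siDDX1, and 0%, 15.9% and 8.52% with siEXOSC3. The 3 libraries labelled siEXOSC3 lay below the other 6, without overlap. Such an order was found at 0.536% of the 13616 genes with an untreated peak. No base of Snhg1 lay under a peak in 9 of 9 libraries, and 14.1% of it lay under none.

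The highest fold at Snhg1 was 8.79, 9.91 and 17.5 with siScramble, 9.16, 8.61 and 8.42 with siDDX1, and 5.59, 7.95 and 7.11 with siEXOSC3. Here too the labelled siEXOSC3 libraries were the lowest 3, an order found at 0.252% of the 6733 genes with a peak in 9 of 9. The fragments at those summits numbered 14, 15 and 28, then 20, 13 and 12, then 8, 12 and 12, so each value rests on few fragments.

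The strongest point at Snhg1 mostly lay off its annotated body. In 8 of 9 libraries the summit of the highest peak was 2957 to 3350 bases from the start, beyond the annotated 3′ end, and in siEXOSC3 replicate 3 it was at 1478 bases. In siEXOSC3 replicate 1 the only peak was of this downstream kind, which gave a covered share of 0. Of the 22 Snhg1 peaks, 9 lay wholly outside the annotated gene, 5 of them downstream and 4 upstream. The upstream ones fall on Slc3a2, an amino acid transporter subunit gene on the opposite strand that starts 126 bases away, and cannot be given to Snhg1. In the body, a peak edge recurred at the XbaI site printed above in 6 libraries.

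**Figure D2:**
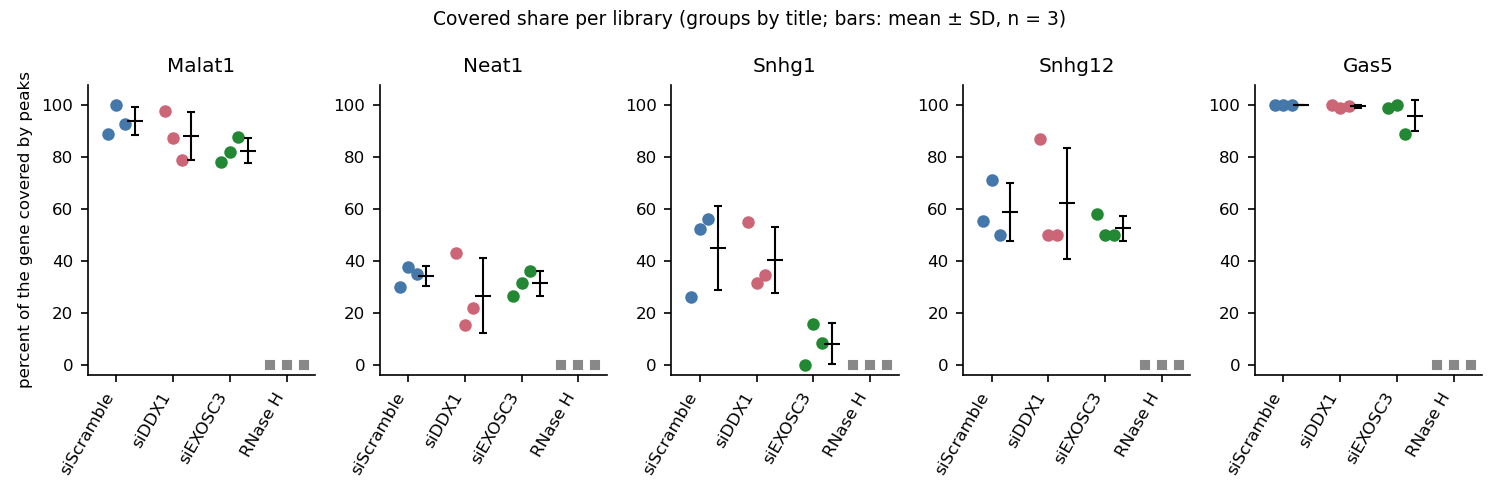
Percent of each of the 5 genes covered by peaks in the 9 untreated libraries by labelled group (circles, with mean and SD of 3) and in the 3 RNase H libraries (squares). The labelled siEXOSC3 libraries lie below the other 6 at Snhg1, from 0% to 15.9%, and all RNase H values are 0.

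Across the 3 groups no gene of the 5 passed the exact permutation test after adjustment over all genes tested, for the covered share or for the fold. The test ran over all ways to split the 9 untreated libraries into groups of 3, with Benjamini-Hochberg adjustment. At an unadjusted p under 0.05, 0 of the 5 genes passed for the covered share, against 2.56% of all genes tested. For the fold as deposited 1 of the 5 passed, Snhg1, against 6.58% of the genes tested, those with a peak in 9 of 9 untreated libraries. After adjustment 0 of 13616 and 0 of 6733 genes passed. The smallest p the splits allow is 0.00357, so a gene could pass after adjustment only if many genes passed together. These tests used peak calls. The study reported changed regions in both depletions from read counts, which were not used here.

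The covered share of Snhg1 was 44.9% ± 16.3 with siScramble, 40.5% ± 12.7 with siDDX1 and 8.13% ± 7.95 with siEXOSC3 (SD, n = 3 each). The exact permutation p was 0.0643 and the adjusted p was 1. Its highest fold averaged 12.1 ± 4.73, 8.73 ± 0.386 and 6.88 ± 1.19 in the same order (SD, n = 3 each), with an exact permutation p of 0.00714 on the log2 scale and an adjusted p of 0.653. On that scale the labelled siEXOSC3 mean was lower than the siScramble mean by a ratio of 0.592, and than the siDDX1 mean by 0.781, each with exact permutation p = 0.1, the smallest a pair of groups of 3 allows. For siDDX1 over siScramble the ratio was 0.758 (exact permutation p = 0.2). By the peak names the lowest group is siScramble and not siEXOSC3. A weaker peak can come from fewer cells with a hybrid or from fewer hybrids per cell, and the 2 cannot be told apart here.

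At the other 4 genes no difference between groups passed the test. Malat1 was covered to 94.0% ± 5.53, 88.1% ± 9.31 and 82.5% ± 4.79 in the order siScramble, siDDX1 and siEXOSC3 (SD, n = 3 for each), with an exact permutation p of 0.229 and, as at the other genes, an adjusted p of 1. Neat1 was covered to 34.2% ± 3.88, 26.7% ± 14.5 and 31.4% ± 4.69 (exact permutation p = 0.604). Snhg12 gave 58.8% ± 11.1, 62.2% ± 21.4 and 52.7% ± 4.82 (exact permutation p = 0.893). Gas5 gave 100% ± 0, 99.5% ± 0.506 and 96.0% ± 6.06 (exact permutation p = 0.179). For the fold the exact permutation p was 0.346 at Malat1, 0.254 at Neat1, 0.229 at Snhg12 and 0.321 at Gas5, all with adjusted p from 0.794 to 0.838.

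The fold tests depended on the scale. The median highest fold over all genes with a peak in 9 of 9 ran from 7.99 (siDDX1 replicate 2) to 14.8 (siEXOSC3 replicate 3). With each library's median subtracted on the log2 scale, Malat1, Snhg1 and Snhg12 passed at an unadjusted p under 0.05. So did 12.4% of the 6733 genes with a peak in 9 of 9, and 0 genes passed after adjustment. Malat1 then stood 0.78 ± 0.10 above the library median with siScramble, 1.07 ± 0.18 with siDDX1 and 0.23 ± 0.35 with siEXOSC3 (log2, SD, n = 3 each), with an exact permutation p of 0.00357, the smallest the splits allow, and an adjusted p of 0.28. The 3 labelled siEXOSC3 libraries were then the lowest at Malat1, although replicate 3 of that label had the highest fold, 22.5, before the subtraction. Snhg12 stood at 1.48 ± 0.20, 1.18 ± 0.12 and 0.92 ± 0.15 (log2, SD, n = 3 each), with an exact permutation p of 0.0143 and an adjusted p of 0.344. There the siDDX1 libraries overlapped each of the other groups, and the siEXOSC3 libraries lay below those of siScramble. Snhg1 stood at 0.17 ± 0.45, -0.08 ± 0.18 and -0.73 ± 0.39 (log2, SD, n = 3 each), with an exact permutation p of 0.0393 and an adjusted p of 0.369, again with the labelled siEXOSC3 libraries lowest. How many of all genes take such orders on this scale was not counted. A p that misses the threshold with 3 libraries a group does not show that the groups are alike.

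**Figure D3:**
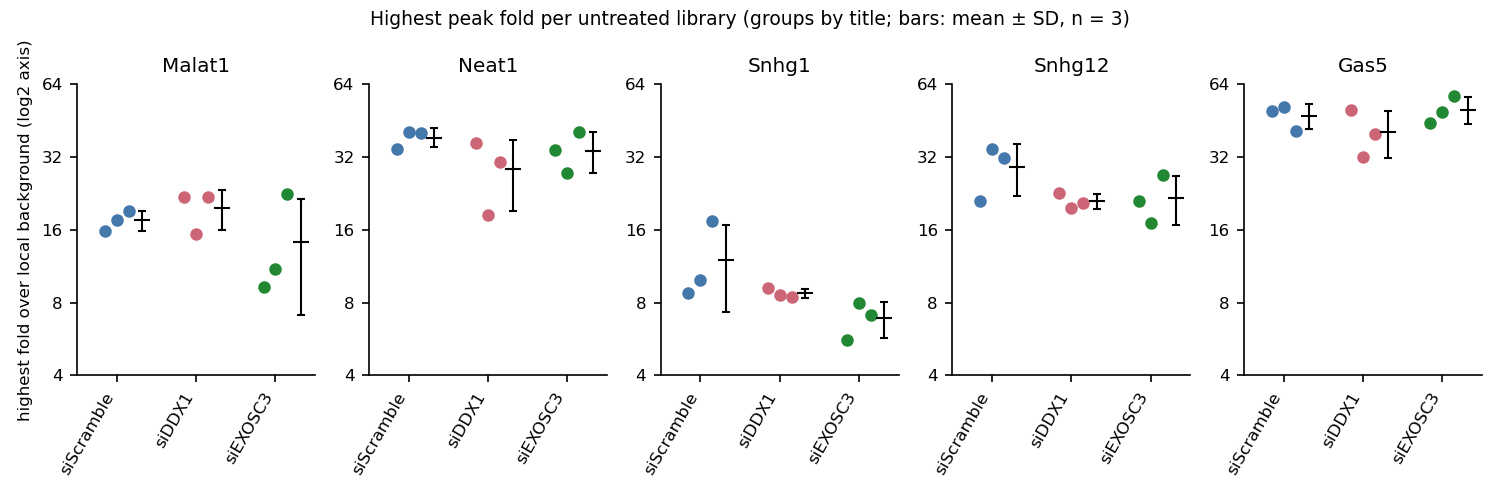
Highest fold over the local background among the peaks of each of the 5 genes, on a log2 axis, in the 9 untreated libraries by labelled group (circles) with the mean and SD of 3. Gas5 lies between 32.1 and 57.1, Snhg1 between 5.59 and 17.5, and the groups overlap at every gene except for the labelled siEXOSC3 libraries at Snhg1.

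With RNase H the covered share was 0 in 3 of 3 libraries at each of the 5 genes. Averaged over the groups, it fell by 98.5 percentage points at Gas5, 88.2 at Malat1, 57.9 at Snhg12, 31.2 at Snhg1 and 30.8 at Neat1. The untreated means were 98.5% ± 3.59, 88.2% ± 7.72, 57.9% ± 13.0, 31.2% ± 20.6 and 30.8% ± 8.50 (SD, n = 9). At Gas5, Malat1, Snhg12 and Neat1 the loss passed the two-sided exact permutation test with labels moved within groups (p = 0.0156, the smallest it allows, adjusted p = 0.0466). At Snhg1 it did not (exact permutation p = 0.0312, adjusted p = 0.0795). There the untreated library siEXOSC3 replicate 1 also had a covered share of 0, which ties with the RNase H value. With the gene bounds extended by 1 kb the loss at Snhg1 passed (exact permutation p = 0.0156, adjusted p = 0.0409).

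Of the 14838 genes with a peak in at least 1 library, 31.6% passed this test with a lower value after RNase H. Of the genes with a peak in 9 of 9 untreated libraries, 81.3% had no RNase H peak. A missing peak is not a count of 0 fragments, since the lists hold only what the caller accepted. The RNase H libraries were deeper than 8 of the 9 untreated ones, with a recovered background of 1.13 or more fragments against 0.706 or less. The nearest RNase H peak lay 54.7 to 417 kb from Gas5, 155 to 1365 kb from Malat1, 184 to 1394 kb from Neat1 and 363 to 2334 kb from Snhg1. At Snhg12 the nearest was 2.32 kb away in 1 library and up to 175 kb away in the others. The loss at these 4 genes missed the threshold whenever 1 untreated library was left out, with adjusted p from 0.0548 to 0.0684, because fewer assignments then allow no smaller p.

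Miat (ENSMUSG00000086878.2, chr5:112642248-112657968, minus strand, 15721 bases) and Snhg11 (ENSMUSG00000044349.8, chr2:158201374-158211881, plus strand, 10508 bases) were listed with no peak in any of 12 libraries. So were 60.2% of all genes. The nearest untreated peak lay 48.6 to 57.9 kb from Miat and 13.6 to 14.3 kb from Snhg11. The absence of a call at this depth does not show that no hybrid is there.

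Among the 6733 genes with a peak in 9 of 9, Gas5 had a geometric mean fold of 45.6 and stood above 98.9% of them, Neat1 with 32.9 above 97.1%, Snhg12 with 23.4 above 91.5% and Malat1 with 16.5 above 81.0%. Snhg1, with 8.81, stood above 37.4% and below the median of 10.0. By mean covered share the order was Gas5 (above 95.8% of those genes), Malat1 (92.4%), Snhg12 (82.1%), Snhg1 (64.9%) and Neat1 (64.3%), where the median gene had 18.6%. The covered share is relative to gene length, which runs from 2347 to 20771 bases among the 5 genes. Neighbours in the order of folds, such as Neat1 and Gas5, overlapped in their ranges over libraries: Neat1 spanned 18.4 to 40.9 and Gas5 32.1 to 57.1. Snhg1, from 5.59 to 17.5, overlapped Malat1, from 9.32 to 22.5.

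**Figure D4:**
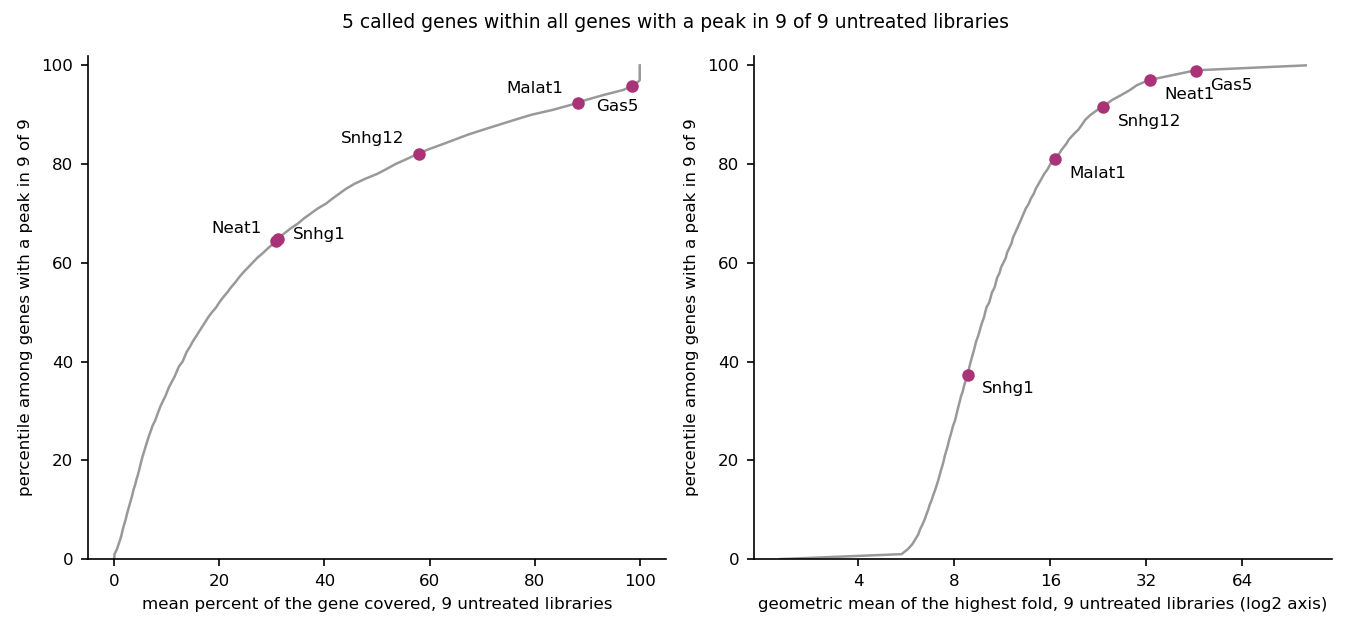
Grey lines give the mean percent covered (left) and the geometric mean of the highest fold (right, log2 axis) at each percentile of the 6733 genes with a peak in 9 of 9 untreated libraries; points are the 5 genes. Gas5 is the highest of the 5 on both scales, and Snhg1 is the only one under the median fold.

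The snoRNA genes inside the hosts were read in the same way. The 4 hosts contain 23 annotated snoRNA genes on their own strand, and 11 of these (47.8%) lay entirely under a peak in 9 of 9 untreated libraries, against 6.25% of the 1552 snoRNA genes of the annotation. No untreated library covered 4 of them fully (17.4%), against 87.1% of all. Neighbouring snoRNA genes of a host share its peak and are not independent, so these shares are a description.

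In Gas5, 8 of 9 snoRNA genes were covered in full in 9 of 9 libraries. The exception was SNORD77, missed in siEXOSC3 replicate 3. In Snhg12, Snora16a, Snora44 and Snora61 lie on the HindIII fragment and were covered in 9 of 9, while Snord99 lies beyond it and was covered in full in none. Snora genes guide pseudouridylation, and Snord genes guide ribose methylation.

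In Snhg1, 8 snoRNA genes were fully covered in 0 to 6 libraries. SNORD28 reached 6 and SNORD29 reached 5, while SNORD27, on the fragment just upstream of the recurrent XbaI edge, reached 0. By library, the number of Snhg1 snoRNA genes under a peak was 2, 4 and 5 with siScramble, 5, 2 and 2 with siDDX1, and 0, 2 and 1 with siEXOSC3. The groups overlapped at 2 genes. The 2 SNORA71 genes of Snhg11 were covered in none, and no RNase H library touched any of the 23.

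**Figure D5:**
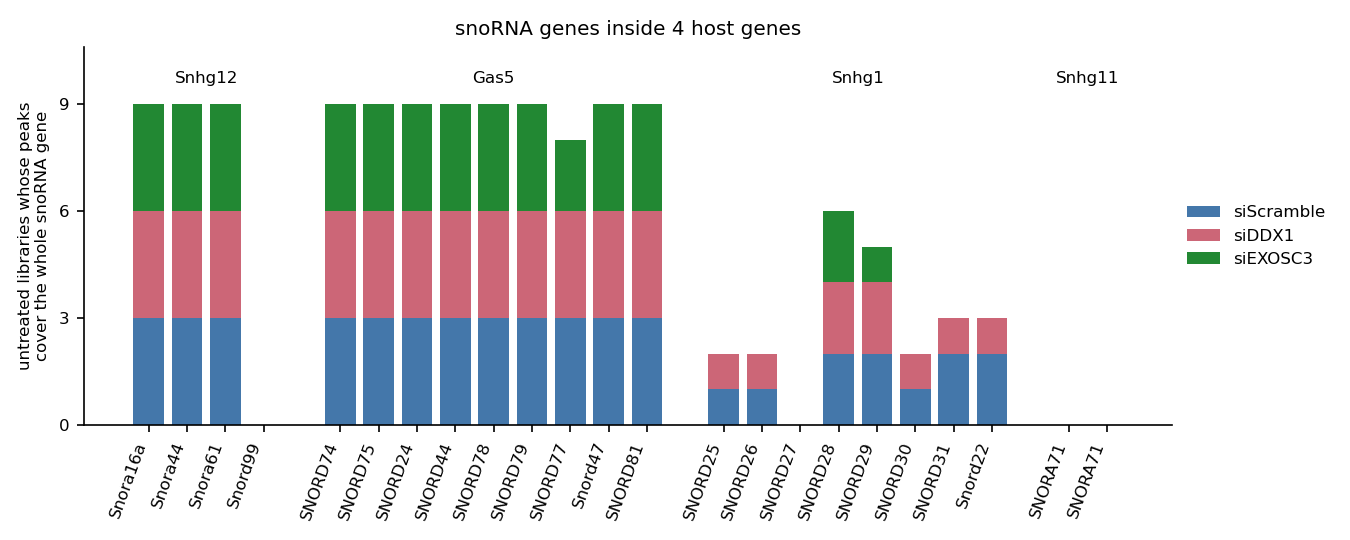
Number of untreated libraries, stacked by labelled group, whose peaks cover each snoRNA gene in full, ordered along each host gene. The genes in Gas5 and on the HindIII fragment of Snhg12 reach 8 or 9, those in Snhg1 reach 0 to 6, and the SNORA71 genes of Snhg11 stay at 0.

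Many edges of these peaks lay on restriction cuts. Of the 125 peaks at the 5 genes, 105 had at least 1 edge exactly on a cut of BsrGI, EcoRI, HindIII, SspI or XbaI, and 29 had both edges on cuts. The 105 are 84% of the peaks, against 52.7% to 64.6% of all peaks of the untreated libraries and 56.9% to 66.0% of those of the RNase H libraries. The same sites of the 5 genes recur from library to library. The 125 peaks are therefore not independent, and the 84% is a description. Of the 250 edges, 134 (53.6%) lay on cuts and the others did not. By gene, this was 19 of 21 peaks at Malat1, 49 of 59 at Neat1, 18 of 22 at Snhg1, 10 of 13 at Snhg12 and 9 of 10 at Gas5. Gas5 holds 2 cuts, 0.486 per kb, and Neat1 holds 36, 1.73 per kb. Miat and Snhg11, without peaks, hold 13 and 17.

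Summits also fell on the cuts. Except for SspI, these enzymes leave ends whose 4 overhanging bases belong to both neighbouring fragments, and 35 of the 125 summits (28%) lay on such bases, among them the Gas5 and Malat1 windows printed above. The Malat1 window marks a summit of 4 libraries, in a HindIII site (AAGCTT). Over all peaks the share of summits on such bases was 13.3% to 21.4% in the untreated libraries and 6.03% to 8.87% in the RNase H libraries. Here too the same sites recur across libraries, so the 28% is a description. The Snora61 and upstream Neat1 summits lay on no such site. Other Neat1 summits did, 16 of 59, among them 1 not printed above at chr19:5841288 that libraries of each label shared.

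Base composition differed widely among the 7 genes. In the first 500 bases Malat1 had 36.6% G and C, higher than in 4.19% of all genes, while Gas5 had 73.8% and Miat 66.2%, higher than in 95.5% and 84.1%. The median was 51.6% over all genes, 63.8% over genes with a peak in 9 of 9 and 47.6% over genes with none. GC skew, the excess of G over C on the transcribed RNA's strand divided by their sum, was 0.366 in the first 500 bases of Malat1 and 0.264 in those of Neat1, above 99.3% and 96.7% of all genes. It was 0.171 at Gas5, 0.10 at Miat and 0.079 at Snhg11, and near 0 at Snhg1 (-0.004) and Snhg12 (-0.008), against a median of 0.062 for genes with a peak in 9 of 9. The 2 genes without peaks were thus not the poorest in G and C or in skew. For Gas5 these bases start at the outermost annotated start and end before the Gas5-001 start printed above. They include the 428 bases that overlap the 5′ end of Zbtb37 on the opposite strand, so their composition cannot be given to Gas5 alone.

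Genes whose covered share varied most like that of each gene over the 9 untreated libraries were Ssr3 for Malat1 (Pearson r = 0.955), 0610009O20Rik for Neat1 (r = 0.986), Rps7 for Snhg1 (r = 0.963), Ak4 for Snhg12 (r = 0.990) and Sqstm1 for Gas5 (r = 0.993). Their mean covered shares were 8.57%, 40.5%, 73.4%, 0.458% and 95.2% in that order. Gas5 was covered to 98.9% or more except in siEXOSC3 replicate 3 (89.0%), and Snhg12 to 49.9% in most libraries, so few libraries set those r values. Each is the highest of about 12350 genes compared over the same 9 libraries, which share their depth and number of peaks, so the values are a description.

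Of 34 further nuclear noncoding and snoRNA host genes on a list, 14 were found in this annotation by name. A peak was present in 9 of 9 untreated libraries at 8 of these, in some at 1 and in none at 5, against 18.1% in 9 of 9 over all genes. Because the list was chosen with earlier results of these data known, this comparison is a description. Mean covered shares were 100% at the host Snhg9, 95.0% at Snhg7, 47.3% at Snhg4 and 22.9% at Snhg3. They were 8.22% at Tug1 and 7.46% at Xist, the RNA that coats the inactive X chromosome, and 4.11% at Pvt1 and 4.03% at 2900097C17Rik. The 5 genes without an untreated peak were the host Snhg5, the Dlk1-Dio3 cluster RNAs Meg3, Rian and Mirg, and Rmst. RNase H libraries had a peak at 3 of the 14: Pvt1 in 3 of 3, and Meg3 and Rmst in 1 of 3 each. Across groups, the exact permutation test gave no unadjusted p under 0.05 for the covered share at the 9 genes with an untreated peak, or for the fold at the 8 genes where it was tested. After adjustment over all genes tested, 6 of the 14 passed the RNase H test with a lower value, against 31.6% of those 14838 genes. Snhg5, Rian and Mirg had no peak in any library and were not tested. The 6 all had the smallest exact permutation p that test allows, 0.0156. They all had a peak in 9 of 9 untreated libraries and none with RNase H. The 14838 genes include those with a peak in only 1 library, so the sets are not matched.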

How the data were processed

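Peak lists of 12 DRIP-seq libraries were used, and the 1 input sample was not analysed here. Per the study's methods, replicates were biological, cut DNA was pulled down with S9.6, and eluted DNA was sonicated. Per the submitters' processing notes, the tools were Bowtie2 2.4.4, SAMtools, MACS2 2.2.6, HOMER 4.11 and DESeq2 on build mm9; reads were recounted by the authors for DESeq2, and those counts were not used here. The authors called peaks in each library separately. The deposited lists give for each peak the fold enrichment (a linear ratio to the local background), the −log10 p and −log10 q, the summit position, and a display score written by the authors' caller, which was not used. Every −log10 q was at least 2.

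Genes were taken from GENCODE vM1, and chromosome lengths and cut sites of its genome were checked against the peaks. Summit fragments and background were solved from fold and −log10 p, assuming the caller's pseudocount of 1 and Poisson tail. Among every 20th peak, 85.2% to 100% per list came out whole within 0.02. Peaks carry no read counts, so the tests used the covered share and log2 of the highest fold. They were exact permutation tests of the F statistic over 280 splits, and of RNase H minus untreated over 64 assignments within groups, with Benjamini-Hochberg adjustment over all genes with a peak. Code was tested on simulated data. Python 3.11.15, numpy 2.4.6, scipy 1.17.1, pandas 2.3.3 and matplotlib 3.10.9 were used.

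The members and lists were chosen with earlier results of these data known. All 7 members are named, with the snoRNA genes inside them, up to 8 listed genes with a peak in 9 of 9 libraries, and the gene most like each member. Alternatives were a −log10 q of at least 5, equal numbers of peaks, joined peaks, other gene bounds, other folds, the replicate number as a block, and leaving out each replicate. Same-numbered libraries correlated from -0.132 to 0.134 in their deviations from group means, so numbers were not taken as pairs. Of the listed names, 20 were not matched.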

Additional observations from a re-analysis of the deposited data

How the results depend on the processing

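The number of genes with a peak in 9 of 9 untreated libraries stayed within 4 to 5 under the 14 alternatives run, 4 only with annotated bounds, where Snhg1 was called in 8 of 9. No member passed the adjusted test across groups under any alternative (14 for the covered share, 12 for the fold). A pass after adjustment needed many genes to pass together, as above. Over all genes, the number at an unadjusted exact p under 0.05 ranged from 59 to 937 for the covered share (348 as reported) and from 191 to 832 for the fold (443), and 0 passed after adjustment in each. The exact p for the fold at Snhg1 ranged from 0.00357 to 0.121. That for its covered share (0.0643) ranged from 0.0143 without siScramble replicate 1 to 0.194 with the replicate block, with 0.0179 with joined peaks and 0.025 without siDDX1 replicate 1. With the replicate block the fold at Snhg1 gave 0.0556, and the block changed no adjusted call. The smallest p the block allows is 0.0278, so a gene could pass after adjustment only if most genes tested did. Other unadjusted exact p under 0.05 were, for the covered share, 0.0286 at Neat1 without siDDX1 replicate 1 and 0.0143 at Gas5 without siEXOSC3 replicate 2. For the fold they were 0.0214 at Malat1 without siEXOSC3 replicate 3, and 0.00357 at Malat1 and 0.0143 at Snhg12 with the library median subtracted. The RNase H loss, called at 4 genes, was called at 0 with a −log10 q of at least 5 (adjusted p = 0.0519 at Gas5, Malat1, Neat1 and Snhg12) and at 0 without any single replicate (range 0 to 0), where the smallest possible p is 0.0208. It was called at 5 with bounds extended by 1 kb, Snhg1 included (adjusted p = 0.0409). With a −log10 q of at least 5 the exact permutation p at Gas5, Malat1, Neat1 and Snhg12 stayed at 0.0156, and only its adjustment changed. The RNase H difference was negative at the 5 genes in each alternative run. The highest Snhg1 summits rested on 8 to 28 fragments.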
